A study of Mus musculus with 64 samples.

Results

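The Hox genes encode homeodomain transcription factors that set position along the body axis. All 39 Hox genes of the mouse had a row in the count files, taken by symbol out of 24328 genes. They lie in 4 clusters: 11 Hoxa genes on chromosome 6, 10 Hoxb genes on chromosome 11, 9 Hoxc genes on chromosome 15 and 9 Hoxd genes on chromosome 2. Genes of the same number in different clusters are paralogs, numbered from 1 to 13. In the embryo low-numbered genes are switched on early and reach far forward, and high-numbered genes are switched on late and stay towards the tail and the distal limb. Adult cells often keep a memory of this code, and adipose depots are known to differ in the Hox genes that they express. Of the 39 genes, 25 had enough counts to be tested in at least 1 comparison, and 14 were never tested.

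RNA from adipose tissue was sequenced in 64 libraries of 15 groups. Fat came from 3 depots: the subcutaneous inguinal pad (iWAT), the visceral epididymal pad (eWAT) and brown fat (BAT). Of the strains, C57BL/6J is written B6 and 129S1/SvlmJ is written 129, and a hybrid of both (B6/129S1 F1) is written F1. Diets were low in fat (LFD) or high in fat (HFD). Groups called rosi had received rosiglitazone, an agonist of PPAR gamma, and groups are called control where the labels do so. B6 iWAT was taken on LFD control, HFD control and HFD rosi (n = 4 each), and 129 iWAT on HFD control and HFD rosi (n = 4 each). F1 iWAT was taken on LFD control and LFD rosi (n = 5 each). B6 eWAT came in a first set on LFD and on HFD with no agent named (n = 5 each). A second set of B6 eWAT held LFD control, HFD control and HFD rosi (n = 4 each). From 129, eWAT was also taken, in an LFD control and an HFD control group of 4 libraries each. BAT came from B6 alone, on HFD, in 4 libraries whose labels name no agent. The labels name no transgene or deletion, and age, dose and time on diet are not given in the sources used here. Where nothing says that libraries came from separate animals, p-values measure only the spread between these samples, which may be technical.

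Library totals over genes ran from 3099737 to 9551251 counts. Levels are in CPM, counts of a gene relative to the library's total, after TMM scaling and in the usual units. Marker genes followed the depot labels. The summed level of 8 brown fat markers (Ucp1, Cidea and others) was 8669 to 10732 CPM in BAT and 29.01 to 78.5 CPM in iWAT of B6 HFD control. Mesothelial markers, of the lining on visceral fat, summed to 91.9 to 620 CPM in eWAT, at most 45.0 CPM in iWAT and 3.20 to 4.11 CPM in BAT. Skeletal muscle markers summed to 4106 to 43904 CPM in B6 iWAT LFD control and 47.7 to 139.3 CPM in B6 iWAT HFD control. They reached 22585 CPM in 129 iWAT HFD control (median 107.6 CPM), 6215 CPM in 129 iWAT HFD rosi (median 1031 CPM) and 2306 CPM in 1 library of the first B6 eWAT LFD group. In the 20 libraries of the first eWAT set and F1, 64.3 to 70.6% of reads lay in no gene feature, against 29.3 to 49.1% in the other 44 libraries. Every comparison of depots crossed sequencing lanes, so depot and lane cannot be told apart within 1 comparison. In tissue RNA, fewer cells of a type and less RNA per cell cannot be told apart.

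Promoters are shown for 3 Hoxa genes whose levels divided the depots, Hoxa5 (highest in BAT) and Hoxa9 and Hoxa10 (highest in iWAT). The sequences are from RefSeq on GRCm38.p6, from 250 bases before to 50 bases after an annotated start, 5′ to 3′ on the gene's strand. Of the 39 Hox genes, 22 matched the table by symbol. Capitals mark matches, on either strand, to the promoter element spelled TATAAA or to the other classic promoter element, spelled CCAAT. A form bound by posterior Hox proteins, TTTATNG, was searched on both strands too, as was TGATNNAT, a form bound by Hox with Pbx, and neither was found in these windows.
Hoxa5, chr6:52204538-52204837, minus strand: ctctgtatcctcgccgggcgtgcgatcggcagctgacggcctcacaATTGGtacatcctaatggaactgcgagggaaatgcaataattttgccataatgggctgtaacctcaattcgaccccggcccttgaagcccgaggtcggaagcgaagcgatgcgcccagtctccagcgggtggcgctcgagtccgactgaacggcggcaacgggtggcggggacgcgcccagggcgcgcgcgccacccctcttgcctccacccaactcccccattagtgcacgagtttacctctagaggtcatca
Hoxa9, chr6:52227321-52227620, minus strand: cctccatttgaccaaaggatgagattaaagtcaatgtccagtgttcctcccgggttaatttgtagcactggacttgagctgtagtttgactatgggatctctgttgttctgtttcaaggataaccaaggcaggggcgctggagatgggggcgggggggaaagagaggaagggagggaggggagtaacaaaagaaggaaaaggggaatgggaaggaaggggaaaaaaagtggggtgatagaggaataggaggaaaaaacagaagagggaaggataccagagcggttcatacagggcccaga
Hoxa10 downstream start, chr6:52234890-52235189, minus strand: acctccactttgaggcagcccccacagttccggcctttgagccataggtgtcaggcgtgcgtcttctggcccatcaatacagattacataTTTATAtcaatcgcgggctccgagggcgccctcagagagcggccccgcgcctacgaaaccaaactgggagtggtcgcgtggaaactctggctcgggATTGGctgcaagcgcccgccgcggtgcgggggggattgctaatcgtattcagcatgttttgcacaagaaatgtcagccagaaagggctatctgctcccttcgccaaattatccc
Hoxa10 upstream start, chr6:52240805-52241104, minus strand: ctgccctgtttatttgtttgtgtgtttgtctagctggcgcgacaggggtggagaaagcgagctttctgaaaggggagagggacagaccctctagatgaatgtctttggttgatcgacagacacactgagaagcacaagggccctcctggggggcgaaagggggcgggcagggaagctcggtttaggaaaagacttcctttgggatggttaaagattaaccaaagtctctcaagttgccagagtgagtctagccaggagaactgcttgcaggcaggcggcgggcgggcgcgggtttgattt
Hoxa5 held 29 CG pairs, Hoxa9 held 4, and the Hoxa10 starts held 21 and 12, against a median of 7 over 32851 promoters of the same length. Of all these promoters 13.6% held TATAAA, 37.4% CCAAT, 10.9% TTTATNG and 8.85% TGATNNAT. A match describes letters in a window, and the reads were aligned to another build, so no coordinates were joined to the counts.

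The 9 genes of paralog numbers 11 to 13 were among the lowest, with 6 to 31 counts each in all 64 libraries together. So were Hoxb1 and Hoxd1, at the low-numbered end of their clusters, with 19 and 22 counts. Between 14 and 24 of the 39 genes had a group mean of at least 1 CPM, depending on the group. Together the genes of numbers 11 to 13 had 0 counts in BAT and in the first B6 eWAT set. In iWAT they summed to 1.70 CPM in 129 HFD rosi replicate 3 and to at most 0.468 CPM in the other 29 libraries. Their sum was highest in 1 library, B6 eWAT HFD rosi replicate 4, at 6.08 CPM over 38 counts, with 44.6% of its reads in no gene feature. All 4 libraries also held some in B6 eWAT LFD control (0.781 to 3.40 CPM), 129 eWAT LFD control (0.599 to 1.40 CPM) and 129 eWAT HFD control (0.145 to 0.838 CPM). Per kilobase of the longest coding transcript, Hoxc8 had the highest mean level in B6 iWAT HFD control, 20.2 CPM per kb, followed by Hoxa10 at 5.48, Hoxc6 at 4.78 and Hoxd8 at 4.67 CPM per kb. In B6 eWAT HFD control the order was Hoxc8 at 9.75, Hoxd8 at 4.07 and Hoxc6 at 3.36 CPM per kb. In BAT it was Hoxa5 at 8.37, Hoxc5 at 6.45, Hoxd8 at 4.12 and Hoxc6 at 3.59 CPM per kb, with Hoxc8 at 1.61 CPM per kb. Whether neighbours in these orders differ was not tested.

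**Figure D1:**
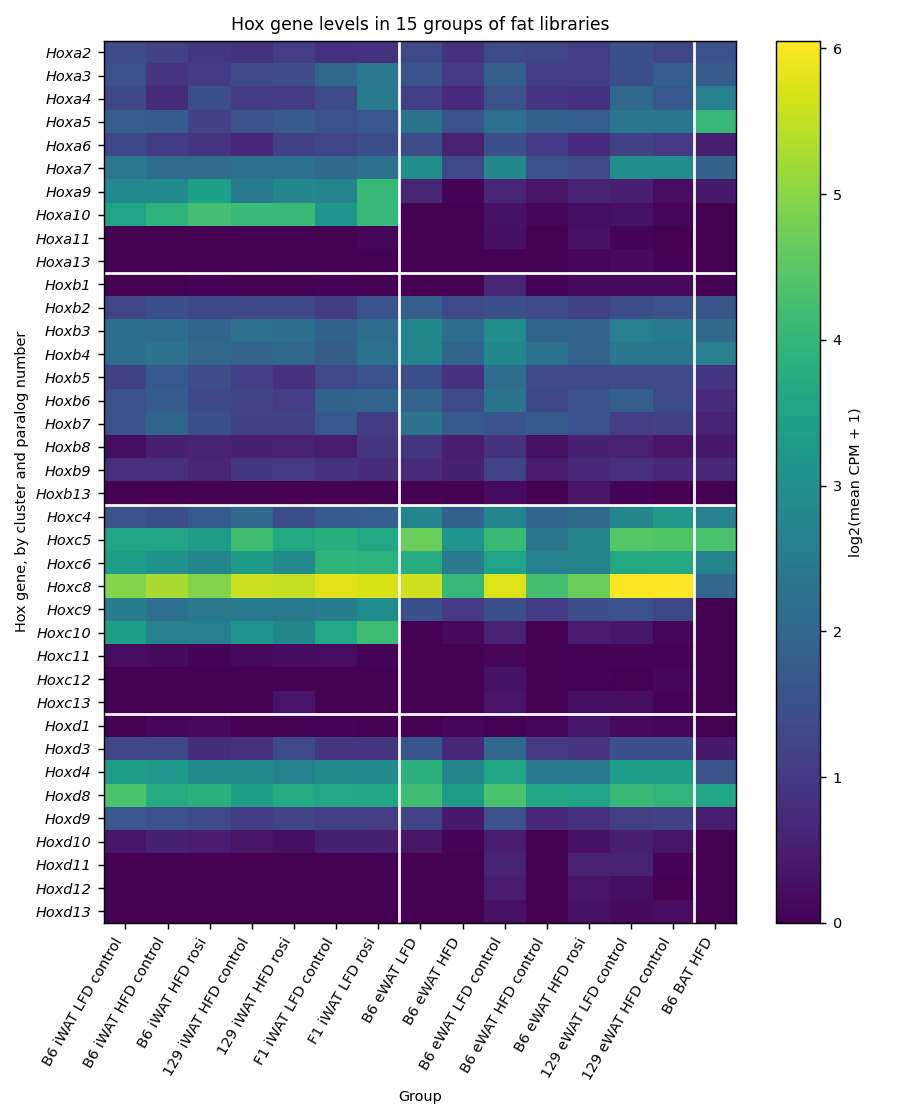
Mean level of Hox genes (rows, by cluster and paralog number) in each of the 15 groups (columns, by depot), as log2(mean CPM + 1). Hoxa9, Hoxa10 and Hoxc10 are high in the 7 iWAT groups and near 0 in eWAT and BAT, and Hoxa5 is highest in BAT.

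The first question was how depots differ in 1 strain on 1 diet: B6 on HFD, with iWAT control, eWAT control and BAT (n = 4 each). The 3 comparisons share libraries in pairs, so they are not independent of one another. Of 19 Hox genes tested between eWAT and iWAT, 9 were lower and 1 higher in eWAT (adjusted p under 0.05, edgeR's quasi-likelihood test with Benjamini-Hochberg adjustment, as for every adjusted p here). Of all 13284 genes tested in that comparison, 22.9% were lower and 26% higher. Between BAT and iWAT, 7 of 16 tested were lower and 4 higher in BAT, where 33.2% and 32.1% of all genes were. Between BAT and eWAT, 3 of 12 were lower and 4 higher in BAT, where 34.2% and 31.5% of all genes were. The median log2 difference of the tested Hox genes was -0.59, -0.36 and 0.39, against -0.0064, -0.019 and -0.015 over all genes tested. In these 3 comparisons 4, 6 and 2 genes reached the count filter in libraries of 1 group alone, so the filter itself favoured a difference. That makes the counts, and the tests of those genes, descriptions. The genes were Hoxa9, Hoxa10, Hoxc9 and Hoxc10 through iWAT in both comparisons with it, and Hoxb6 through iWAT against BAT. Hoxa4 did so through BAT in both of its comparisons, and Hoxb7 through eWAT against BAT. Leaving out eWAT replicate 2 or iWAT replicate 1 left 5 or 6 calls between eWAT and iWAT, and leaving out eWAT replicate 4 left 4 between BAT and eWAT.

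Hoxa9, Hoxa10, Hoxc9 and Hoxc10 were higher in iWAT than in eWAT and in BAT. All 4 reached the count filter through iWAT alone, so their adjusted p values, here and in the paragraphs on each gene, belong to descriptions. Hoxa10, known for its roles in the uterus, the limb and blood progenitors, stood at 20.1, 15.97, 11.2 and 8.94 CPM in the 4 libraries of B6 iWAT HFD control. In eWAT of B6 HFD control it was at 0.340, 0, 0 and 0 CPM, and it had 0 counts in all 4 BAT libraries. The iWAT libraries did not overlap with the others. The log2 difference of Hoxa10 was -7.05 ± 0.61 (SE) for eWAT against iWAT (adjusted p = 0.000594), and iWAT was at least 69.1-fold higher than BAT (adjusted p = 2.88e-05). Bounds of this kind set a floor of 3 counts over the group that had none, and cover counting error only.

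Hoxa9, the neighbour of Hoxa10 and a regulator of blood progenitors, had the same order of depots. Its levels in B6 iWAT HFD control were 7.68, 6.74, 5.86 and 5.63 CPM. In eWAT they were 0.340, 0, 0.403 and 0.282 CPM, and in BAT 0.264, 0.880, 0.267 and 0 CPM. All 4 iWAT libraries lay above the rest. The log2 difference of Hoxa9 was -4.66 ± 0.40 for eWAT against iWAT (adjusted p = 0.000594) and -4.13 ± 0.44 for BAT against iWAT (adjusted p = 1.23e-05).

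Hoxc10, known in mouse subcutaneous fat as a repressor of the thermogenic programme, was detected in iWAT alone among these 12 libraries. It stood at 5.69, 5.27, 5.52 and 4.41 CPM in iWAT and had 0 counts in eWAT and in BAT. The iWAT level of Hoxc10 was at least 54.97-fold higher than that of eWAT (adjusted p = 0.000801) and at least 25.7-fold higher than that of BAT (adjusted p = 1.35e-05). Hoxc9, used as a marker of subcutaneous against brown fat, was higher in iWAT than in the other depots, and BAT against eWAT was not tested for it. Its levels were 2.56, 4.54, 3.85 and 3.55 CPM in iWAT, 1.25, 1.22, 1.21 and 0.704 CPM in eWAT, and 0 in BAT. The log2 difference of Hoxc9 was -1.78 ± 0.26 for eWAT against iWAT (adjusted p = 0.00166), and iWAT was at least 17.8-fold higher than BAT (adjusted p = 7.24e-05).

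Hoxc8, which restrains brown fat gene expression in mouse progenitors, had the highest mean CPM of the Hox genes in both white depots. It stood at 43.5, 37.5, 30.1 and 39.9 CPM in iWAT, 28.1, 14.99, 11.1 and 18.6 CPM in eWAT, and 6.08, 1.47, 1.87 and 2.61 CPM in BAT. The 3 depots did not overlap. Log2 differences of Hoxc8 were -1.12 ± 0.27 for eWAT against iWAT (adjusted p = 0.00934), -3.59 ± 0.29 for BAT against iWAT (adjusted p = 1.5e-06) and -2.48 ± 0.44 for BAT against eWAT (adjusted p = 0.00086).

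Hoxd4 and Hoxb6 were highest in iWAT too. Hoxd4, a hindbrain and spinal patterning gene, was at 7.96, 7.77, 9.54 and 8.45 CPM in iWAT, 7.71, 3.41, 2.68 and 4.65 CPM in eWAT and 2.91, 1.76, 1.33 and 2.09 CPM in BAT. Its eWAT and BAT ranges overlapped. Log2 differences of Hoxd4 were -0.93 ± 0.31 for eWAT against iWAT (adjusted p = 0.0335), -2.01 ± 0.23 for BAT against iWAT (adjusted p = 2.53e-05) and -1.09 ± 0.41 for BAT against eWAT (adjusted p = 0.0392). The first of these calls was kept in 6 of 14 other fits and the last in 9 of 14. Hoxb6, a gene of the trunk, was at 2.70, 2.49, 2.01 and 2.33 CPM in iWAT, 1.25, 1.10, 1.74 and 1.69 CPM in eWAT, and 0.264, 0, 1.07 and 1.31 CPM in BAT. The iWAT libraries lay above both other depots. Log2 differences of Hoxb6 from iWAT were -0.81 ± 0.23 in eWAT (adjusted p = 0.0177, a call kept in 8 of 14 other fits) and -1.75 ± 0.50 in BAT (adjusted p = 0.00989). Against BAT, Hoxb6 reached the count filter through iWAT alone, so that test is a description.

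Hoxa4, Hoxa5, Hoxc4 and Hoxc5 were higher in BAT than in iWAT and in eWAT. The other genes of these paralog numbers were not: Hoxd4 was lower in BAT, as given above, Hoxb4 did not pass against either, and Hoxb5, which was not tested in these comparisons, averaged 0.874 CPM in BAT, 2.18 CPM in iWAT and 1.59 CPM in eWAT. Hoxa5, known for patterning the neck and the respiratory tract, was at 14.3, 17.6, 16.6 and 14.4 CPM in BAT. In iWAT it was at 1.71, 2.49, 2.85 and 2.57 CPM, and in eWAT at 2.84, 3.05, 2.15 and 2.39 CPM. The white depots overlapped one another and lay below every BAT library. Hoxa5 was higher in BAT by 2.73 ± 0.19 than in iWAT (adjusted p = 5.35e-07) and by 2.68 ± 0.18 than in eWAT (adjusted p = 3.77e-06), both log2, while eWAT against iWAT did not pass (0.046 ± 0.23, adjusted p = 0.877).

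Hoxa4, its neighbour, which patterns cervical vertebrae, was also highest in BAT, the 1 group of the 3 in which it reached the count filter. Hoxa4 levels were 5.81, 5.57, 4.27 and 4.71 CPM in BAT, 0.711, 0.733, 0.335 and 0.857 CPM in iWAT, and 1.36, 0.853, 0.268 and 0.985 CPM in eWAT. No white library among these reached the BAT range. Log2 differences of Hoxa4 in BAT were 2.90 ± 0.29 against iWAT (adjusted p = 6.53e-06) and 2.60 ± 0.36 against eWAT (adjusted p = 0.000193).

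Hoxc4, of the same paralog number, was at 8.46, 3.23, 4.004 and 5.23 CPM in BAT, 1.85, 1.61, 1.34 and 2.08 CPM in iWAT and 2.84, 3.66, 2.28 and 2.67 CPM in eWAT. BAT overlapped with eWAT but not with iWAT. Hoxc4 was higher in BAT by 1.62 ± 0.32 than in iWAT (adjusted p = 0.000988) and by 0.97 ± 0.31 than in eWAT (adjusted p = 0.0208). It was the 1 Hox gene higher in eWAT than in iWAT here, by 0.64 ± 0.23 (adjusted p = 0.0466), a call kept in 3 of 14 other fits. Hoxc5, the next gene along, ranged from 11.4 to 22.4 CPM in BAT, 9.37 to 12.8 CPM in iWAT and 1.48 to 8.28 CPM in eWAT. Its log2 difference was 0.86 ± 0.20 for BAT against iWAT (adjusted p = 0.00323), 2.24 ± 0.44 for BAT against eWAT (adjusted p = 0.0016) and -1.39 ± 0.42 for eWAT against iWAT (adjusted p = 0.023). Hoxb4, also of number 4, averaged 5.06 CPM in BAT and 3.95 CPM in iWAT and did not pass the test (0.39 ± 0.21, adjusted p = 0.121). Hoxb7 was lower in BAT than in eWAT (-2.12 ± 0.48, adjusted p = 0.00341) and Hoxa7 lower in eWAT than in iWAT (-0.91 ± 0.26, adjusted p = 0.0192). The test of Hoxb7 is a description, since it reached the count filter through eWAT alone. Hoxd8 averaged 12.3, 10.7 and 10.8 CPM in iWAT, eWAT and BAT and passed none of the 3 tests.

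**Figure D2:**
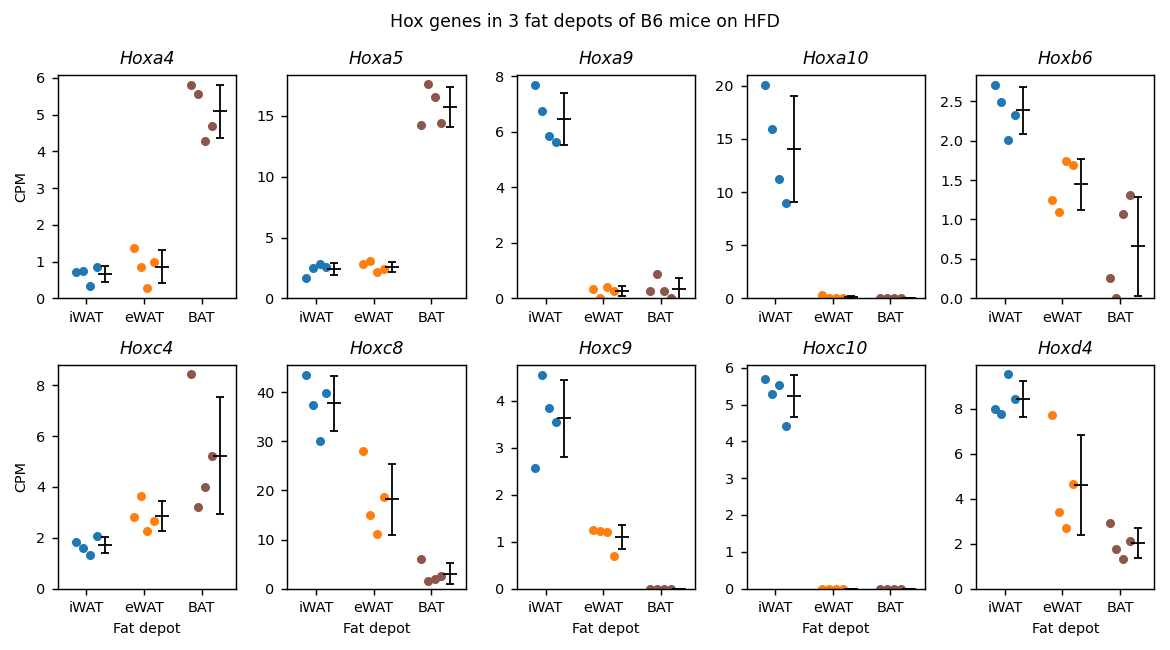
CPM (vertical axis, from 0, scaled per gene) of 10 Hox genes in each library of B6 on HFD, by depot (iWAT control, eWAT control and BAT, 4 libraries each), with mean ± SD. Hoxa9, Hoxa10 and Hoxc10 are high in iWAT alone, and Hoxa4 and Hoxa5 in BAT alone.

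In these 12 libraries stromal and preadipocyte markers (7 of 7 detected) summed to 1387 to 2494 CPM in iWAT, 2171 to 3116 CPM in eWAT and 391.1 to 704.8 CPM in BAT. Macrophage markers (8 of 8 detected) summed to 673.5 to 1297 CPM in iWAT, 1920.2 to 5165 CPM in eWAT and 93.3 to 334.2 CPM in BAT. Their part in the Hox differences was not tested. Epididymis and testis markers summed to 0.268 to 0.487 CPM in B6 eWAT HFD control, with 9 of 12 at 0, Crisp1 and Prm1 among them. In other eWAT groups they reached 18.98 CPM in 129 HFD control replicate 2 (group median 0.922 CPM) and 3.84 CPM in B6 HFD rosi replicate 4. Their highest sums were 2.76 CPM in B6 LFD control and 1.98 CPM in 129 LFD control. The first B6 LFD and HFD groups reached 3.96 and 0.528 CPM. The part of such tissue was not tested.

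The next question was whether eWAT and iWAT differed alike on another diet, under rosi and in another strain. Hoxa9, Hoxa10 and Hoxc10 were lower in eWAT in all 4 comparisons, and 0 Hox genes were higher in all 4. All 3 reached the count filter through iWAT alone on LFD in B6 and in 129, as did Hoxa10 and Hoxc10 with rosi, so their tests there are descriptions too. On LFD in B6, 4 of 16 tested genes were lower and 5 higher in eWAT, where 12.3% and 13.3% of all genes were. With rosi on HFD, 4 of 14 were lower and 0 higher, where 17.4% and 20% of all genes were; without eWAT rosi replicate 4, which held the paralogs 11 to 13 above, 8 were called. In 129 on HFD control, 4 of 17 were lower and 4 higher, where 7.71% and 10.1% of all genes were. Across all strains, diets and agents, Hoxa10 ran from 6.15 to 24.2 CPM (median 13.8) in the 30 iWAT libraries and from 0 to 0.8293 CPM in the 30 eWAT libraries, 22 of which had none. Hoxa9 ran from 3.13 to 21.3 CPM (median 6.49) in iWAT and from 0 to 1.60 CPM (median 0.249) in eWAT. Hoxc10 ran from 3.70 to 22.5 CPM (median 6.81) in iWAT and from 0 to 1.28 CPM in eWAT, with 18 of 30 at 0. None of the 3 genes overlapped between these depots, over 3 lanes of iWAT and 3 other lanes of eWAT. How many of all genes were lower in all 4 comparisons, or did not overlap between these libraries, was not counted. The 3 genes therefore have no such share beside them.

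In 129, Hoxa10 stood at 7.79, 17.6, 20.6 and 17.3 CPM in iWAT HFD control and at 0, 0.140, 0.168 and 0 CPM in eWAT HFD control, a log2 difference of -7.39 ± 0.54 (adjusted p = 1.14e-05). Hoxc10 differed by -6.39 ± 0.53 (adjusted p = 2.26e-05), Hoxa9 by -4.80 ± 0.48 (adjusted p = 7.61e-05) and Hoxc9 by -1.62 ± 0.25 (adjusted p = 0.00134) there. On LFD in B6, where iWAT carried the muscle markers named above, the differences were -5.54 ± 0.62 for Hoxa10, -4.33 ± 0.55 for Hoxc10, -3.50 ± 0.36 for Hoxa9 and -1.38 ± 0.26 for Hoxc9. In 129 iWAT HFD control replicate 3 carried the 22585 CPM of muscle markers, and without it the difference of Hoxa10 was -7.23 ± 0.53. The part of muscle on LFD in B6 was not tested. With rosi, Hoxa10 differed by -6.70 ± 0.65, Hoxa9 by -4.19 ± 0.70, Hoxc10 by -3.62 ± 0.70 and Hoxa7 by -1.04 ± 0.30 (kept in 8 of 13 other fits).

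Genes of lower paralog number did not keep 1 direction. Hoxc8 was higher in eWAT than in iWAT on LFD in B6 (52.4 ± 7.92 against 29.6 ± 2.80 CPM, SD, n = 4 each, edgeR log2 0.90 ± 0.13, adjusted p = 0.00181). It was higher too in 129 on HFD (64.3 ± 4.44 against 46.4 ± 7.30 CPM, log2 0.46 ± 0.11, adjusted p = 0.014), but lower in B6 on HFD as given above. Hoxc4 was higher in eWAT by 1.59 ± 0.28 on LFD in B6 (adjusted p = 0.00367) and by 1.38 ± 0.20 in 129 (adjusted p = 0.000831). On LFD in B6, Hoxb3 (0.998 ± 0.22), Hoxb4 (0.83 ± 0.20) and Hoxc5 (0.66 ± 0.14) were higher in eWAT as well. In 129, Hoxa5 (1.10 ± 0.27, adjusted p = 0.018) and Hoxa7 (0.81 ± 0.23, adjusted p = 0.031) were also higher in eWAT.

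**Figure D3:**
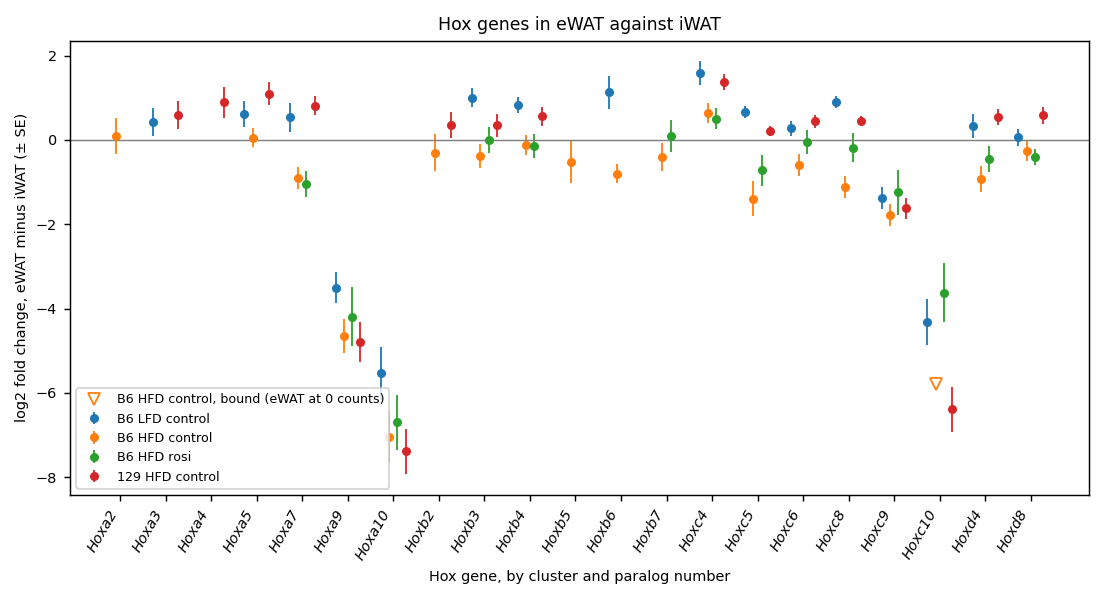
Log2 fold change of eWAT minus iWAT (± SE) for each tested Hox gene, ordered by cluster and paralog number, in 4 comparisons; the open triangle is a bound where eWAT had no counts. Hoxa9, Hoxa10 and Hoxc10 lie below -3 in all 4, and Hoxc8 changes side between B6 on HFD control and B6 on LFD or 129.

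Diet changed more Hox genes in eWAT of B6 than in the other depots and strains compared. In the first set, 11 of 11 tested Hox genes were lower on HFD, where 28.5% of all 12447 genes were lower and 29.5% higher. In the second set, 12 of 15 were lower and 0 higher, where 24.3% and 25.7% of all genes were. The medians of the tested Hox genes were -1.18 and -1.25 on the log2 scale, against -0.0019 and -0.024 over all genes. The sets hold separate libraries, and 9 genes were lower in both: Hoxa7, Hoxb3, Hoxb4, Hoxc4, Hoxc5, Hoxc6, Hoxc8, Hoxd4 and Hoxd8. How many of all genes were lower in both sets was not counted, so the 9 have no such share beside them. In the second set the call of Hoxb4 was kept in 5 of 13 other fits and that of Hoxd4 in 8 of 13. Through LFD alone, 1 gene (Hoxa7) reached the count filter in the first set and 3 (Hoxa3, Hoxb6 and Hoxd3) in the second. The filter favoured a difference for them there, so those tests are descriptions.

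Hoxc8 stood at 46.5, 49.99, 39.6, 55.8 and 48.4 CPM on LFD and at 7.92, 22.5, 24.97, 11.6 and 10.3 CPM on HFD in the first set. In the second set it stood at 53.9, 45.1, 47.9 and 62.96 CPM on LFD control and 28.1, 14.99, 11.1 and 18.6 CPM on HFD control. The diets did not overlap in either set, with log2 differences of -1.67 ± 0.26 (adjusted p = 0.000104) and -1.67 ± 0.27 (adjusted p = 0.00113). Hoxa7, a trunk gene, ran from 5.13 to 8.37 CPM on LFD and from 0.825 to 2.02 CPM on HFD in the first set (-2.19 ± 0.25, adjusted p = 8.5e-06), and its difference was -1.78 ± 0.39 (adjusted p = 0.00505) in the second. Hoxc5 ran from 20.4 to 26.9 CPM on LFD and from 4.05 to 12.3 CPM on HFD in the first set (-1.67 ± 0.24, adjusted p = 6.64e-05), with -2.06 ± 0.41, adjusted p = 0.0033 in the second. In the first set Hoxc6 (-1.48 ± 0.27), Hoxd4 (-1.30 ± 0.24) and Hoxb4 (-1.02 ± 0.20) had the next lowest adjusted p. In the second these were Hoxb3 (-1.38 ± 0.26), Hoxb6 (-1.60 ± 0.30) and Hoxd3 (-1.69 ± 0.33).

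Other cell types moved with diet in the same libraries. Adipocyte markers (7 of 7 detected) summed to 21768 to 24559 CPM on LFD and 5985 to 17486 CPM on HFD in the first set, and to 18278 to 26118 and 2840.1 to 19674 CPM in the second. Macrophage markers summed to 502.6 to 635.2 CPM on LFD and 2324 to 4499.9 CPM on HFD in the first set, and to 414.4 to 788.7 and 1920.2 to 5165 CPM in the second. Endothelial markers (6 of 6 detected) summed to 713.9 to 848.2 CPM on LFD and 251.4 to 537.6 CPM on HFD in the first set, and nerve and Schwann markers (6 of 6) to 444.4 to 548.9 and 178.01 to 276.9 CPM. Stromal markers were higher on HFD, at 1419 to 1804 CPM on LFD and 2144 to 2794 CPM on HFD in the first set. The part of these cells in the Hox differences was not tested. The first set was sequenced in 1 lane, whereas diet and lane cannot be told apart in the second. In the second set 39.3 to 49.1% of reads lay in no gene feature on LFD, against 33.9 to 36.4% on HFD. Library totals there were 3129871 to 4190798 counts on LFD and 7009292 to 8512112 on HFD. There the 9 Hox genes of the highest paralog numbers together held 30 counts on LFD and 2 on HFD. In the first set totals and no-feature reads overlapped between diets, and those 9 genes held 0 counts. The part of these library differences was not tested.

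Elsewhere diet changed few Hox genes, at shares near or below those of all genes. In B6 iWAT 2 of 22 tested were lower on HFD and 0 higher, where 11.1% and 11.7% of all genes were. They were Hoxd8 (19.2 ± 5.01 on LFD against 12.3 ± 1.68 CPM on HFD, SD, n = 4 each, edgeR log2 -0.66 ± 0.18, adjusted p = 0.0272) and Hoxc10 (9.88 ± 3.73 against 5.22 ± 0.570 CPM, log2 -0.94 ± 0.26, adjusted p = 0.0275). The 4 LFD libraries of Hoxc10, at 13.7, 5.36, 8.43 and 12.04 CPM, overlapped with those on HFD. That contrast moved with the muscle markers given above, whose part was not tested. No call remained in fits that left out LFD replicate 1, HFD replicate 1 or HFD replicate 4, 1 remained without LFD replicate 4 or HFD replicate 2, and 4 were made without LFD replicate 2.

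In 129 eWAT 1 of 15 tested was higher on HFD and 0 lower, where 11.9% and 9.27% of all genes were. It was Hoxc4, at 6.38, 5.41, 4.99 and 6.02 CPM on LFD and 7.52, 10.1, 8.56 and 8.54 CPM on HFD (0.58 ± 0.17, adjusted p = 0.0242). The diets did not overlap for Hoxc4, but the call was lost without LFD replicate 2 or 3 or HFD replicate 2 or 4, and diet and lane cannot be told apart there. Hoxc8 in 129 eWAT stood at 65.3 ± 4.23 CPM on LFD and 64.3 ± 4.44 CPM on HFD (-0.046 ± 0.081, adjusted p = 0.727).

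**Figure D4:**
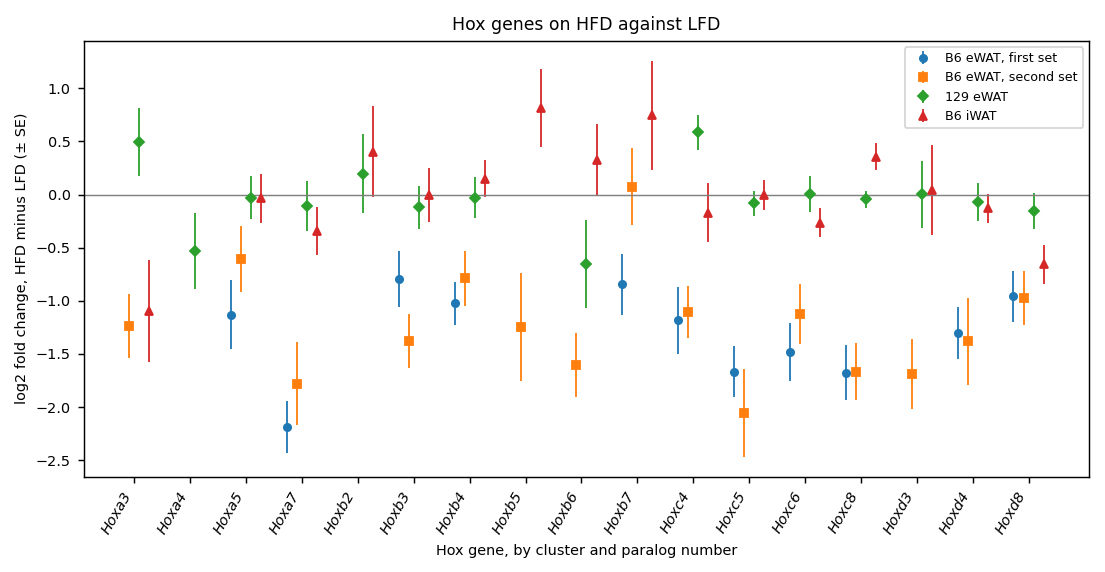
Log2 fold change of HFD minus LFD (± SE) for Hox genes in both B6 eWAT sets, 129 eWAT and B6 iWAT. The B6 eWAT points lie below 0 except Hoxb7 in the second set, whereas the 129 eWAT and B6 iWAT points lie on both sides of 0.

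Whether these differences themselves differed was tested as an interaction over 4 groups. The depot difference of B6 (eWAT minus iWAT) was lower on HFD than on LFD for 11 of 25 tested Hox genes and higher for 0, where 16.7% and 18.5% of all genes were. The lowest adjusted p values were for Hoxc8 (-2.02 ± 0.31, adjusted p = 0.000454), Hoxc5 (-2.05 ± 0.44, adjusted p = 0.00285), Hoxb6 (-1.94 ± 0.47, adjusted p = 0.00601), Hoxb3 (-1.37 ± 0.36), Hoxa7 (-1.44 ± 0.45) and Hoxb4 (-0.94 ± 0.30). This interaction crossed lanes, and B6 iWAT LFD control carried the muscle markers given above, whose part was not tested. On HFD, the depot difference was higher in 129 than in B6 for 8 of 24 tested and lower for 0, where 12% and 14.8% of all genes were. Hoxc8 (1.57 ± 0.29, adjusted p = 0.003), Hoxa7 (1.71 ± 0.35, adjusted p = 0.00395), Hoxd4 (1.46 ± 0.37), Hoxc5 (1.59 ± 0.42), Hoxc6 (1.02 ± 0.30) and Hoxd9 (1.77 ± 0.59) led there. The Hoxd9 call was kept in 6 of 21 other fits. The diet difference in eWAT was higher in 129 than in B6 for 10 of 20 tested and lower for 0, where 18.7% and 21.5% of all genes were. That comparison was added after the data were seen. It was led by Hoxc4 (1.65 ± 0.27, adjusted p = 0.000264), Hoxc8 (1.58 ± 0.28, adjusted p = 0.000439), Hoxc5 (1.92 ± 0.41), Hoxb3 (1.22 ± 0.31), Hoxa3 (1.70 ± 0.44) and Hoxa7 (1.63 ± 0.47). The 3 interactions share the B6 eWAT HFD control libraries. The first fell to 6 calls without eWAT HFD replicate 2 and to 7 without eWAT LFD replicate 2, eWAT HFD replicate 3 or iWAT HFD replicate 2 or 4. The second fell to 5 in 8 of 16 such fits: without replicate 2 or 4 of B6 eWAT, 2 or 3 of B6 iWAT, 2 or 3 of 129 iWAT, or 1 or 3 of 129 eWAT.

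Strain gave a contrast in eWAT on HFD. There, in libraries of 1 lane, 10 of 17 tested Hox genes were higher in 129 than in B6 and 0 lower, where 25.3% and 28.9% of all genes were. Hoxc8 was at 60.3, 68.4, 60.6 and 67.8 CPM in 129 and 28.1, 14.99, 11.1 and 18.6 CPM in B6, with no overlap (1.85 ± 0.25, adjusted p = 0.000432). Hoxc4 (1.63 ± 0.18, adjusted p = 0.000167), Hoxa7 (1.81 ± 0.22, adjusted p = 0.000238), Hoxc5 (2.26 ± 0.40, adjusted p = 0.0016), Hoxc6 (1.23 ± 0.26) and Hoxa5 (0.72 ± 0.20) were the others with the lowest adjusted p. Macrophage markers summed to 629.7 to 784.6 CPM in 129 and 1920.2 to 5165 CPM in B6 there, and adipocyte markers to 24372 to 27353 and 2840.1 to 19674 CPM. Their part was not tested. In eWAT on LFD 0 of 13 tested passed in edgeR, where 32.3% of all genes did, with 5 at an unadjusted p under 0.05 and 0 by DESeq2. Leaving out B6 LFD control replicate 4 gave 3 calls there, and leaving out replicate 1 of either strain gave 1.

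In iWAT strain calls of Hox genes were few, at shares near or below those of all genes. On HFD control 2 of 18 tested were higher in 129 and 1 lower, where 11.7% and 16.1% of all genes were. Hoxc5 stood at 18.8, 15.3, 16.6 and 18.1 CPM in 129 and 12.8, 10.1, 9.37 and 10.4 CPM in B6 (0.66 ± 0.13, adjusted p = 0.00423), without overlap. Hoxc4 was higher too (0.90 ± 0.25, adjusted p = 0.0226) and Hoxb7 lower (-1.19 ± 0.36, adjusted p = 0.0312), calls kept in 9 of 13 and 6 of 11 other fits. Without 129 replicate 3, whose muscle markers reached 22585 CPM, 1 gene was called. With rosi 1 of 14 was higher and 0 lower, where 7.32% and 8.69% of all genes were: Hoxc8, at 44.1 ± 6.003 CPM in 129 and 28.96 ± 6.29 CPM in B6 (0.59 ± 0.16, adjusted p = 0.031), a call lost without replicate 3 or replicate 4 of either strain. In iWAT on LFD control 2 of 16 were higher in F1 than in B6 and 1 lower, where 11.4% and 12.1% of all genes were. These were Hoxc8 (54.1 ± 13.7 against 29.6 ± 2.80 CPM, 0.88 ± 0.18, adjusted p = 0.00497), Hoxc6 (0.68 ± 0.15, adjusted p = 0.00721) and Hoxd8 (-0.78 ± 0.23, adjusted p = 0.0326), whose call was kept in 7 of 14 other fits. Strain and lane cannot be told apart in these 3 iWAT comparisons. Muscle markers, given above, were higher in the 129 rosi than in the B6 rosi group by their medians (1031 against 33.9 CPM), and higher in B6 than in F1 on LFD control. Their part was not tested.

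No Hox gene tested in the HFD groups was called with rosi in edgeR. In B6 iWAT 0 of 17 tested passed, where 13.2% of all genes did, with 4 at an unadjusted p under 0.05 and 0 by DESeq2. In 129 iWAT 0 of 16 passed, where 0.11% of all genes did, with 3 at an unadjusted p under 0.05 and 0 by DESeq2. In B6 eWAT 0 of 15 passed, where 0% of 13213 genes did, with 0 at an unadjusted p under 0.05 and 0 by DESeq2. Hoxa4 did not reach the count filter in B6 iWAT and so was not among the genes tested. It stood at 0.711, 0.733, 0.335 and 0.857 CPM in control and 1.06, 1.70, 2.17 and 1.98 CPM with rosi, without overlap, and was singled out after its values were seen. Fits that held Hoxa4 gave a log2 difference of 1.33 ± 0.41, adjusted p = 0.0699 with no count filter. Fitting all groups at once gave 1.36 ± 0.40, adjusted p = 0.0216. Dropping rosi replicate 1 gave 1.51 ± 0.36, adjusted p = 0.017. Hoxa4 did not pass when control replicate 3 was dropped instead (1.16 ± 0.38, adjusted p = 0.0962). DESeq2 gave an adjusted p of 0.0813 for Hoxa4. In 129 iWAT Hoxa4 ran from 0.760 to 1.63 CPM in control and 0.892 to 1.44 CPM with rosi, which overlapped. Hoxa10 averaged 14.04 ± 4.96 CPM in control and 18.04 ± 6.21 CPM with rosi in B6 iWAT (0.35 ± 0.29, adjusted p = 0.476). In 129 iWAT the means of Hoxa10 were 15.8 ± 5.57 and 15.95 ± 0.760 CPM (-0.0058 ± 0.24, adjusted p = 0.999).

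In F1 iWAT on LFD, 4 of 15 tested Hox genes rose with rosi and 0 fell, where 18.7% and 19.1% of all genes did, in libraries of 1 lane. Hoxa9 stood at 6.33, 6.49, 5.06, 6.50 and 3.13 CPM in control and 16.2, 21.3, 13.1, 15.4 and 14.5 CPM with rosi. The groups did not overlap (1.54 ± 0.21, adjusted p = 9.89e-05). Hoxa4 was at 1.27, 2.99, 0.964, 1.001 and 1.83 CPM in control and 4.35, 6.32, 5.38, 3.17 and 3.99 CPM with rosi, again without overlap (1.51 ± 0.33, adjusted p = 0.00307). Hoxa10 rose from 9.92, 7.73, 6.99, 8.75 and 7.57 CPM to 17.4, 16.1, 10.4, 12.5 and 22.2 CPM (0.93 ± 0.21, adjusted p = 0.00353). Hoxc10 rose from 6.96, 10.98, 12.3, 13.01 and 13.3 CPM to 15.95, 15.5, 22.5, 13.1 and 16.5 CPM, with ranges that overlapped (0.57 ± 0.19, adjusted p = 0.035), a call kept in 8 of 15 other fits. Hoxa5, next to Hoxa4, averaged 1.89 ± 1.16 CPM in control and 2.12 ± 0.501 CPM with rosi (SD, n = 5 each). Brown fat markers (7 of 8 detected, Zic1 at 0) summed to 212.7 to 504.4 CPM in control and 1887 to 6605 CPM with rosi. Stromal markers summed to 958.6 to 1968 and 619.2 to 1008 CPM, macrophage markers to 208.6 to 531.3 and 109.1 to 212.2 CPM, and nerve and Schwann markers to 686.2 to 993.2 and 306.6 to 401.01 CPM. Their part was not tested. Whether F1 differed from B6 or 129 in the drug's effect was not tested, since diet and lane differ as well.

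**Figure D5:**
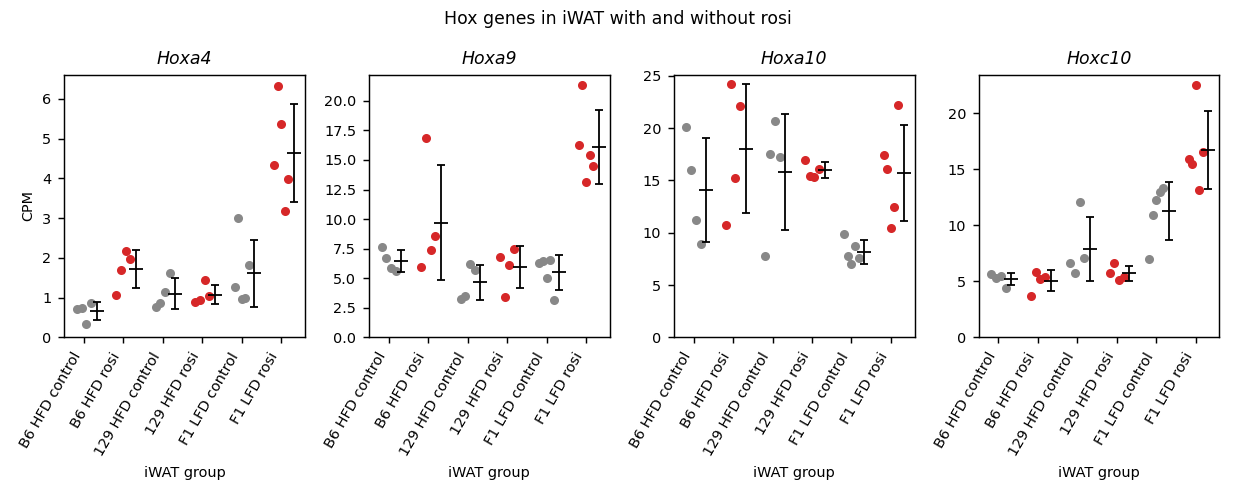
CPM (vertical axis, from 0, scaled per gene) of Hoxa4, Hoxa9, Hoxa10 and Hoxc10 in each iWAT library of the 3 pairs of control and rosi groups, with mean ± SD. Hoxa4, Hoxa9 and Hoxa10 separate fully in F1, as does Hoxa4 in B6, where it was not tested. The B6 pair overlaps for Hoxa9, Hoxa10 and Hoxc10, and the 129 pair for all 4 genes.

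Hox proteins bind DNA with TALE cofactors (Pbx, Meis and Pknox). Of 8 TALE genes tested, 4 were higher and 1 lower in eWAT than in iWAT of B6 HFD control, where 26% and 22.9% of all genes were. Meis3 was at 6.07 ± 1.23 CPM in iWAT and 13.7 ± 3.08 CPM in eWAT (1.09 ± 0.21, adjusted p = 0.00403), and Meis1 at 7.71 ± 0.938 and 13.7 ± 0.778 CPM (0.74 ± 0.13, adjusted p = 0.00245), with Pbx2 and Pknox2 higher as well. In BAT against iWAT 3 were higher and 2 lower of 7 tested (32.1% and 33.2% of all genes). On HFD in B6 eWAT, of 8 TALE genes tested, 3 fell and 3 rose in the first set (28.5% and 29.5% of all genes), and 3 fell and 0 rose in the second (24.3% and 25.7%). In F1 iWAT 3 of 7 fell with rosi (Meis3 and Meis1 among them) and 0 rose, where 19.1% and 18.7% of all genes did.

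Retinoic acid is a known activator of low-numbered Hox genes in the embryo. Of 10 genes of its signalling tested in BAT against iWAT, 1 was higher and 6 lower, where 32.1% and 33.2% of all genes were. The higher one was the receptor Rarb, at 29.4 ± 5.62 CPM in BAT and 8.38 ± 1.21 CPM in iWAT (1.83 ± 0.16, adjusted p = 3.38e-06). Aldh1a1, which makes retinoic acid, was lower in BAT (23.3 ± 9.43 against 251.1 ± 48.9 CPM, -3.39 ± 0.24, adjusted p = 5.15e-07). In BAT against eWAT 3 of 10 were higher and 7 lower (31.5% and 34.2% of all genes). Between eWAT and iWAT of B6 HFD control 3 were higher and 3 lower of 10 (26% and 22.9% of all genes), Aldh1a1 among the lower (-1.15 ± 0.20, adjusted p = 0.00303). On HFD in the first B6 eWAT set 3 rose and 2 fell of 9 (29.5% and 28.5% of all genes). In the second set, where diet and lane cannot be told apart, 2 rose and 4 fell of 10 (25.7% and 24.3% of all genes). In F1 with rosi 1 rose and 1 fell of 7 tested, where 18.7% and 19.1% of all genes did. Rarb was the one that rose (0.71 ± 0.19, adjusted p = 0.0104) and Aldh1a1 the one that fell (-2.47 ± 0.27, adjusted p = 1.78e-05).

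Polycomb proteins keep Hox clusters silent and Trithorax proteins keep them active. All 21 such genes on the list were tested in each comparison. In BAT against iWAT 6 were higher and 1 lower, where 32.1% and 33.2% of all genes were, with the demethylase gene Kdm6b at 38.5 ± 8.32 against 16.9 ± 2.02 CPM (1.21 ± 0.16, adjusted p = 5.27e-05). Between eWAT and iWAT of B6 HFD control 3 were higher and 4 lower (26% and 22.9% of all genes). On HFD in the first B6 eWAT set 3 rose and 8 fell (29.5% and 28.5% of all genes). In the second set, where diet and lane cannot be told apart, 3 rose and 6 fell (25.7% and 24.3% of all genes). In that second set Cbx7, a Polycomb reader, fell from 33.5 ± 5.96 to 10.9 ± 0.904 CPM (-1.76 ± 0.16, adjusted p = 0.00018) and Kdm6b from 38.02 ± 3.40 to 15.7 ± 1.36 CPM (-1.42 ± 0.11, adjusted p = 0.000128). In F1 with rosi 4 rose and 4 fell, where 18.7% and 19.1% of all genes did. Homeobox neighbours and ParaHox genes, 13 in all, summed to at most 5.12 CPM in any library.

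Noncoding rows of the clusters were low. Of 16, Hotairm1 had 799 counts in all 64 libraries together, and Hotair and Hottip had 13 and 20. Hotairm1 averaged 6.76 ± 0.839 CPM in BAT, 2.32 ± 0.102 CPM in iWAT and 1.46 ± 0.481 CPM in eWAT of B6 on HFD. BAT was higher in Hotairm1 than iWAT (1.57 ± 0.19, adjusted p = 3.46e-05) and than eWAT (2.28 ± 0.26, adjusted p = 6.7e-05). Hoxaas3 was lower on HFD in the second B6 eWAT set, from 2.20 ± 0.606 to 0.508 ± 0.0960 CPM (-2.21 ± 0.32, adjusted p = 0.000704). The count filter lay at 1.79 CPM there, which Hoxaas3 reached through LFD alone, so that test is a description. Diet and lane cannot be told apart in that set, and in the first set 0 of the 16 noncoding rows were tested. Hox genes overlap antisense and neighbouring transcripts, and the strand setting of the counting is not given in the sources used here, so reads of a gene and an overlapping one cannot be told apart.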

How the data were processed

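Adipose RNA was extracted with Trizol and RNeasy columns, depleted of ribosomal RNA with Ribo-Zero gold and made into TruSeq libraries, per the labels' protocols. The deposited values are raw counts per gene, which the authors made with TopHat2 2.1.0, HTSeq and mm9, per the submitters' processing notes; the annotation and strand setting are not given in the sources used here. The 5 tallies at the end of each file (no feature, ambiguous and others) were left out of library sizes. The 39 members are the rows named Hoxa to Hoxd with a number. Members and gene lists were chosen with earlier results of these data known. Some genes that enter the counts are not reported here by name.

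Counts were tested with edgeR 4.0.16 in R 4.3.3 (quasi-likelihood, 2-sided, TMM scaling, filterByExpr with a minimum of 10 counts and 15 in total), over all genes of the groups compared, with Benjamini-Hochberg adjustment and a threshold of 0.05. Interactions used 4 groups in 1 fit. The standard error is the log2 fold change divided by the square root of F. CPM was scaled by TMM over all 64 libraries. Where a group had no count, a floor of 3 counts over the group gave a bound, which covers counting error only. The scripts were tested on simulated data. Alternatives were RLE size factors, no count filter, DESeq2 1.42.0, all groups in 1 fit, the first eWAT set, a replicate block and each library left out. Library values are given for Hox genes called in at least 2 of the 3 B6 HFD depot comparisons with a mean of at least 2 CPM, at most 4 per cluster, and elsewhere the 6 called genes of lowest adjusted p are named. Hoxc5 is given by range under that rule.

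Same-numbered samples of BAT and iWAT (B6 HFD) deviated together, with correlations of 0.215 to 0.321 in 4 pairs. The numbers were therefore taken to pair them from the data, not from the labels. No other comparison met that rule. The log2 differences, errors and adjusted p values given for BAT against iWAT are from fits that leave this pairing out.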

Additional observations from a re-analysis of the deposited data

Results flagged for a closer look

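Single libraries stood away from the rest of their group for 4 of 119 gene and group pairs tested, by Dixon's rule on the gap to the nearest library, where chance flags about 5 in 100. Hoxa5 in 129 eWAT LFD control replicate 1 was at 4.84 CPM, with the others from 3.99 to 4.09 CPM. Hoxa10 in B6 iWAT LFD control replicate 2 was at 6.15 CPM, with the others from 11.5 to 12.3 CPM. Hoxb6 in 129 iWAT HFD control replicate 4 was at 2.45 CPM, with the others from 0.949 to 1.05 CPM. Hoxc9 in B6 eWAT HFD control replicate 4 was at 0.704 CPM, with the others from 1.21 to 1.25 CPM. 

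Groups differed in their effects by edgeR's test of the difference itself. The difference of eWAT from iWAT on HFD was higher in 129 than in B6, on the log2 scale, for Hoxa5 (1.04 ± 0.36), Hoxa7 (1.71 ± 0.35), Hoxc5 (1.59 ± 0.42), Hoxc6 (1.02 ± 0.30), Hoxc8 (1.57 ± 0.29), Hoxd3 (1.70 ± 0.61), Hoxd4 (1.46 ± 0.37) and Hoxd9 (1.77 ± 0.59), with adjusted p from 0.003 to 0.0496. Calls there were kept in 5 of 21 other fits for Hoxa5, 4 of 21 for Hoxd3 and 6 of 21 for Hoxd9. In B6 that difference was lower on HFD than on LFD for Hoxa7 (-1.44 ± 0.45), Hoxb3 (-1.37 ± 0.36), Hoxb4 (-0.94 ± 0.30), Hoxb5 (-2.05 ± 0.67), Hoxb6 (-1.94 ± 0.47), Hoxc5 (-2.05 ± 0.44), Hoxc6 (-0.86 ± 0.31), Hoxc8 (-2.02 ± 0.31), Hoxc10 (-3.79 ± 1.27), Hoxd3 (-1.75 ± 0.57) and Hoxd4 (-1.25 ± 0.44), with adjusted p from 0.000454 to 0.0404, and the calls were kept in 8 of 21 other fits for Hoxc6 and 7 of 21 for Hoxd4. The Hoxc10 value rests on a group with 0 counts, so its size depends on the prior count and is no bound. The difference of HFD from LFD in eWAT was higher in 129 than in B6 for Hoxa3 (1.70 ± 0.44), Hoxa7 (1.63 ± 0.47), Hoxb3 (1.22 ± 0.31), Hoxc4 (1.65 ± 0.27), Hoxc5 (1.92 ± 0.41), Hoxc6 (1.08 ± 0.34), Hoxc8 (1.58 ± 0.28), Hoxd3 (1.64 ± 0.49), Hoxd4 (1.27 ± 0.46) and Hoxd9 (1.69 ± 0.62), with adjusted p from 0.000264 to 0.0391, and the calls were kept in 8 of 21 other fits for Hoxd4 and 3 of 13 for Hoxd9. These comparisons cross lanes and share libraries, and macrophage and adipocyte markers differed in the same groups. Muscle markers were high in B6 iWAT LFD control and in 129 iWAT HFD control replicate 3. The part of these markers was not tested.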

How the results depend on the processing

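Counts of Hox genes called moved by over 1.5 times under these settings, and the cause was not tested. With the first eWAT set in place of the second, 6 were called between eWAT and iWAT on HFD and 14 on LFD. With no count filter 17 were called between BAT and iWAT. With all groups in 1 fit the counts were 11 for BAT against eWAT, 8 for eWAT against iWAT with rosi, 1 for diet in B6 iWAT, 0 for diet in 129 eWAT, 1 for rosi in B6 iWAT, 0 for strain in iWAT with rosi, 2 for strain in eWAT on LFD and 5 for depot by strain. DESeq2 gave 0 for diet in 129 eWAT, 1 for strain in iWAT on HFD control and 5 for depot by strain.

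Leaving out 1 library at a time gave these lowest and highest counts of calls, with the count from all libraries in brackets. Between eWAT and iWAT they were 5 to 11 (10) on HFD, 9 to 11 (9) on LFD, 3 to 8 (4) with rosi and 6 to 9 (8) in 129. BAT gave 10 to 13 (11) against iWAT and 4 to 7 (7) against eWAT. Diet gave 9 to 11 (11) and 10 to 13 (12) in the first and second B6 eWAT sets, 0 to 1 (1) in 129 eWAT and 0 to 4 (2) in B6 iWAT. Rosi gave 0 to 1 (0) in B6 iWAT, 0 to 0 (0) in 129 iWAT, 0 to 0 (0) in B6 eWAT and 3 to 4 (4) in F1. Strain gave 1 to 3 (3) and 0 to 1 (1) in iWAT on HFD control and rosi, 0 to 3 (0) and 7 to 11 (10) in eWAT on LFD and HFD, and 2 to 4 (3) for F1. The interactions gave 5 to 9 (8) for depot by strain, 6 to 12 (11) for depot by diet and 8 to 11 (10) for diet by strain.

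With the replicate block, 11 genes were called between BAT and iWAT, where the numbers pair the samples, and 8 between eWAT and iWAT on HFD, where samples share only a number; the block moved no count by over 1.5 times. Of 125 called gene results, 0 reversed in 650 other fits, where 593 kept the call, or in 1248 fits with a library left out, where 1050 kept it. The Hoxc4 call between eWAT and iWAT on HFD held in 3 of 14. Scaling CPM by total counts moved 1 of 30 levels by over 1 SD. Depth limits the 14 genes that were never tested, which had 6 to 252 counts each in all libraries together. Their differences were not tested in the main fits, and what this depth could detect was not assessed.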
